A study of Homo sapiens with 6 samples.

Results

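The genes described here encode the integrin chains and the cytoplasmic proteins of focal adhesions. They were taken by symbol from the deposited table: the 17 alpha chains and 8 beta chains listed there, and 17 cytoplasmic members named one by one, which gave 42 of the 34157 genes. RNA had been sequenced from HK-2 cells, an established line of human kidney proximal tubule epithelium immortalised with papillomavirus oncogenes. Of the 6 libraries, 3 came from HK-2 cells given GDF5, a ligand of the bone morphogenetic protein family, at 100 ng/ml for 48 hours, and 3 from control HK-2 cells. All 6 are of the 1 cell line. The labels do not say whether replicates were grown as separate cultures, so each p-value reflects only how far these libraries vary, and that variation may be technical.

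Integrins are cell-surface receptors made of 1 alpha and 1 beta chain, and the pair decides which matrix ligand is bound. The αV chain, paired with a choice of beta chains, binds RGD-containing ligands such as fibronectin and vitronectin and can release latent TGF-beta, while α3, α6 and β4 form laminin receptors that hold epithelial cells to their basement membrane. Inside the cell talins and kindlins bind the beta tail and activate the receptor, vinculin and the parvins couple it to actin, and paxillin, focal adhesion kinase and p130Cas carry its signals.

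Of the 42 members, 27 had a mean of at least 1 RPKM (reads per kilobase of gene, scaled to the reads of the library) over the 6 libraries and were tested, and 15 lay below that level. With limma on log2(RPKM + 1), 6 rose and 4 fell at an adjusted p under 0.05, and 17 were not called. Those that rose were the alpha chain gene ITGAV and the cytoplasmic members VCL, PXN, TLN2, FERMT2 and PTK2. The 4 that fell were all receptor chain genes: ITGA3, ITGA6, ITGB4 and ITGB8. The changes were between 0.11 and 0.29 in size on the log2(RPKM + 1) scale, and between 0.17 and 0.35 with limma-voom on reads recovered from the RPKM values.

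Over all 12476 genes tested, 25.0% were called, 7.48% higher and 17.5% lower. Among the 27 tested members 37.0% were called, 22.2% higher and 14.8% lower, so the share of falls was near that of all genes. The median log2 change was 0.017 over the tested members and -0.050 over all tested genes. The groups did not overlap for 11 of the 27, or 40.7%, against 43.9% of all tested genes. GDF5 was the higher in 7 of these and the lower in 4, against 13.5% and 30.4% of all tested genes. Since the total of reads sets the RPKM scale, the same fit was made with median-of-ratios scaling, which moved the median of all genes to 0.0021 and turned the split of all calls: 933 genes were higher and 2183 lower before it, and 1606 higher and 1242 lower with it. With that scaling 22.8% of all genes were called, 12.9% higher and 9.96% lower. Of the members 7 were then higher, PARVA being added, and 4 lower.

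Depth and cell identity were also checked. Reads on genes, recovered from the RPKM steps, numbered 43883468 to 56038305 per library in GDF5 and 45101766 to 56017280 in control libraries, and tested members rested on 504 to 75837 reads per library. GDF5 replicate 1 was the library least like its group: a chi-square of its reads averaged 4.62 and 5.27 over genes when set against the other GDF5 libraries, which gave 1.63 between themselves. Pairs of control libraries gave 2.78, 3.41 and 4.49, so the margin was small. With GDF5 replicate 1 left out, 5 members were called higher, PTK2 being lost, and 4 lower, against 7.53% and 17.3% of all genes. The call of PTK2 was also lost on leaving out any other library. The keratins KRT8 and KRT18, EPCAM and PAX8 were present, but 4 of 10 proximal tubule and epithelial markers, AQP1, LRP2, CUBN and ANPEP, were under 0.1 RPKM. The summed level of those 10 was 206 to 213 RPKM in GDF5 and 254 to 261 RPKM in control libraries, and its part in the results was not tested. Of the 6 tested, which include GGT1 and MME, 4 were called lower and 0 higher with limma, or 66.7% lower against 17.5% of all genes. With median-of-ratios scaling 2 were lower, or 33.3% against 9.96%. Leukocyte and platelet markers in the table numbered 8, of which 6, PTPRC among them, were under 0.1 RPKM. The sums of the 8 were 1.82 to 1.89 RPKM in GDF5 and 1.37 to 1.78 RPKM in control libraries, without overlap. Only CSF1R had a mean of at least 1 RPKM, and it was not called with limma (log2 change 0.17). It was called higher with median-of-ratios scaling (0.20) and with limma-voom (0.34). PECAM1, CDH5, VWF and TEK, 4 of the 5 endothelial markers in the table, were under 0.1 RPKM, and the sum of the 5 was 4.27 to 4.50 RPKM in GDF5 and 4.34 to 5.48 RPKM in control libraries. Of 6 fibroblast markers 2, DCN and LUM, were above 1 RPKM and 3 under 0.1 RPKM, with sums of 71.1 to 75.7 RPKM in GDF5 and 74.2 to 80.6 RPKM in control libraries. In such bulk RNA fewer cells that express a gene and less RNA per cell cannot be told apart.

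Promoter sequence is shown for called members, 3 that rose (ITGAV, VCL, TLN2) and 1 that fell (ITGA6), to set the control regions of both directions side by side. Each run is the 250 bases before the outermost RefSeq start of the gene on GRCh38.p14, written 5′ to 3′ on the gene's strand. Windows that lay over more than 30 bases of a GENCODE exon (PXN, ITGB8 and FERMT2) are not printed. Of the TLN2 window 24 bases and 2 bases of that of VCL lie in such exons, and the VCL window lies inside the longest GENCODE extent of the gene. Capitals mark the motifs searched on both strands: GGCGCC (a GC-rich element bound by SMADs of the BMP pathway), GGAATG (TEAD), TGANTCA (AP-1) and GGGCGG (the GC box), which may share letters where they meet.
ITGAV, chr2:186589806-186590055, + strand: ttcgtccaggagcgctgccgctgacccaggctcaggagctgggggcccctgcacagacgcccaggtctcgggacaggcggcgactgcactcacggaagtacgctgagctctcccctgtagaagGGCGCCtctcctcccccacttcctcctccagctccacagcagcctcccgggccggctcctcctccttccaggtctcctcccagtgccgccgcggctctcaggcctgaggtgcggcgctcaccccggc
VCL, chr10:73997866-73998115, + strand: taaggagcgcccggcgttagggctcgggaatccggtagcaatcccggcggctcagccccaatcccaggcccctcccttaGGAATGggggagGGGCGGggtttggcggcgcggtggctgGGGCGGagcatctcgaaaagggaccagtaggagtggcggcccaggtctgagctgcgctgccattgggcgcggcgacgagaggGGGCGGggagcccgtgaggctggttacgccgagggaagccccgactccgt
TLN2, chr15:62390300-62390549, + strand: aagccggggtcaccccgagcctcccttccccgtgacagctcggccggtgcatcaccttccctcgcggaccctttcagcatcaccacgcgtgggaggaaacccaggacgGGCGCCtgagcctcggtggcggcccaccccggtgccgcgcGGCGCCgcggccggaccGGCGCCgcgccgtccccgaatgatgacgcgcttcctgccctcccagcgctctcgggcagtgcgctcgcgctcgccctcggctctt
ITGA6, chr2:172427086-172427335, + strand: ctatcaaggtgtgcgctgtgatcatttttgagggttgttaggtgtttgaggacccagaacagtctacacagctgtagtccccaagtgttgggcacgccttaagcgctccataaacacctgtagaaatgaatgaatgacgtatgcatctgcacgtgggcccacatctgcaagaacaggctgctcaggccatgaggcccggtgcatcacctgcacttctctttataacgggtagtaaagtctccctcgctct

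GGCGCC stood once in each of the windows of ITGAV, PXN and FERMT2 and 3 times in that of TLN2, and in none of the windows of VCL, ITGA6 and ITGB8. VCL held GGAATG once and the GC box 3 times, PXN and FERMT2 each held the GC box 8 times and ITGB8 held it 2 times. The ITGA6 window held none of the 4 motifs. RefSeq windows were found for 30 members, 12 of which held GGCGCC (40.0%), against 16.4% of all 35116 windows of the same length. These sets are unlike. Each member gave 1 window, while the 35116 took in every start listed, whether or not the gene was expressed. GC content was not matched. The GC box stood in 56.7% of the members' windows and 42.6% of all, GGAATG in 13.3% and 11.9%, and TGANTCA in 3.33% and 6.57%. By call, GGCGCC stood in 4 of 5 windows of members that rose, 0 of 2 that fell, 6 of 14 not called and 2 of 9 not tested. No window was found for the called members ITGA3, ITGB4 and PTK2. Of the 2 windows of members that fell, that of ITGB8 lies in exons over 198 of its 250 bases. The windows are thus too few to compare the 2 directions. A match of letters is a description of the window and not a binding site.

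Among the alpha chains 7 of 17 were tested: 1 rose, 2 fell and 4 were not called. Over all tested genes 7.48% rose and 17.5% fell. ITGAV (ENSG00000138448, chromosome 2, 186590065 to 186680901 on GRCh38 in GENCODE 29) encodes αV and was the most abundant receptor chain per length. It stood at 134, 141 and 139 RPKM in GDF5 libraries, against 124, 122 and 118 RPKM in control libraries. All GDF5 libraries lay above all control libraries. ITGAV rose by 0.18 on the log2(RPKM + 1) scale (standard error 0.0328, limma adjusted p = 0.00804), and by 0.25 with median-of-ratios scaling. In every alternative fit it stayed called, with adjusted p between 2.35e-06 and 0.0374.

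ITGA3 (ENSG00000005884, chromosome 17, 50055968 to 50090481), the α3 chain of an epithelial laminin receptor, was second in level among the alpha chains and moved the other way. It stood at 73.5, 69.5 and 69.0 RPKM in GDF5 libraries, against 86.0, 83.6 and 91.3 RPKM in control libraries. The groups did not overlap, and ITGA3 fell by 0.29 on the log2(RPKM + 1) scale (standard error 0.0417, limma adjusted p = 0.00325). ITGA6 (ENSG00000091409, chromosome 2, 172427354 to 172506282), whose α6 chain pairs with β1 or β4 to bind laminin, stood at 4.06, 3.74 and 4.00 RPKM in GDF5 libraries, against 5.20, 5.01 and 4.81 RPKM in control libraries. It too was lower in all 3 GDF5 libraries, with a log2 change of -0.28 on the log2(RPKM + 1) scale (standard error 0.0445, limma adjusted p = 0.00502). Both calls held in every alternative fit, with log2 changes of -0.32 to -0.23 for ITGA3 and -0.34 to -0.23 for ITGA6.

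The remaining tested alpha chain genes were not called. ITGA5, the fibronectin receptor chain, stood at 12.3, 12.0 and 12.4 RPKM in GDF5 libraries, against 11.7, 11.5 and 12.5 RPKM in control libraries. Its groups overlapped, since control replicate 3 was the highest of the 6 (log2 change 0.039, 95% interval -0.050 to 0.13). For the collagen receptor chains, ITGA1 stood at 1.46, 1.51 and 1.53 RPKM in GDF5 libraries, against 1.49, 1.33 and 1.29 RPKM in control libraries, and ITGA2 at 1.67, 1.94 and 1.86 RPKM in GDF5 libraries, against 1.62, 1.72 and 1.71 RPKM in control libraries. ITGA1 was overlapped by control replicate 1 (log2 change 0.079, 95% interval -0.059 to 0.22). With limma-voom on reads recovered from the RPKM values it was called higher, at a log2 change of 0.19 (adjusted p = 0.0324, range over the alternatives 0.0324 to 0.582). ITGA2 was overlapped in GDF5 replicate 1 and had a log2 change of 0.071 (95% interval -0.065 to 0.21). ITGAE, the αE chain of an E-cadherin receptor of lymphocytes, stood at 1.83, 1.94 and 2.20 RPKM in GDF5 libraries, against 2.05, 2.04 and 2.25 RPKM in control libraries, with groups that overlapped (log2 change -0.059, 95% interval -0.21 to 0.089). The alternative scaling left the signs of these 4 as they were.

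Among the beta chains 6 of 8 were tested, and 2 fell, 4 were not called and none rose (0 with a limma unadjusted p under 0.05 either, and 1, ITGB1, by limma-voom). Over all tested genes 17.5% fell and 7.48% rose with limma at an adjusted p under 0.05. Their share at the unadjusted threshold was not counted. ITGB1 (ENSG00000150093, chromosome 10, 32900319 to 33005792), the β1 chain shared by most matrix receptors, was the most abundant of them at 92.4, 95.7 and 96.0 RPKM in GDF5 libraries, against 94.9, 93.6 and 90.5 RPKM in control libraries. The groups overlapped, and its log2 change of 0.026 (95% interval -0.046 to 0.098) was not called (limma adjusted p = 0.572). It was called higher with limma-voom (adjusted p = 0.0492, range over the alternatives 0.0306 to 0.903), with a log2 change of 0.081.

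Of the other partners of αV, β3, β5 and β6 were not called and β8 fell. ITGB3, the β3 chain of the vitronectin receptor, stood at 61.6, 64.7 and 65.7 RPKM in GDF5 libraries, against 69.2, 66.2 and 64.1 RPKM in control libraries. ITGB5 (β5) stood at 19.4, 18.3 and 18.3 RPKM in GDF5 libraries, against 18.7, 18.6 and 20.5 RPKM in control libraries. ITGB6, an epithelial chain whose αVβ6 receptor activates TGF-beta, stood at 6.24, 6.20 and 6.34 RPKM in GDF5 libraries, against 6.22, 6.62 and 6.67 RPKM in control libraries. In all 3 the groups overlapped, and the log2 changes were -0.054 (95% interval -0.15 to 0.038), -0.042 (95% interval -0.15 to 0.066) and -0.046 (95% interval -0.13 to 0.042). With median-of-ratios scaling their signs turned, at 0.0089, 0.019 and 0.0091, so no direction is given for them. In the annotation 51.6% of the exon bases of ITGB3 and 20.6% of those of ITGB6 are shared with another gene on the same strand, so their levels are uncertain.

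ITGB8 (ENSG00000105855, chromosome 7, 20330702 to 20415754), whose αVβ8 receptor also activates latent TGF-beta, stood at 13.2, 14.3 and 13.2 RPKM in GDF5 libraries, against 16.0, 16.3 and 16.0 RPKM in control libraries. No GDF5 library reached the lowest control library, and the log2 change was -0.23 on the log2(RPKM + 1) scale (standard error 0.0371, limma adjusted p = 0.00559). ITGB4 (ENSG00000132470, chromosome 17, 75721328 to 75757818), the β4 chain that pairs with α6 in hemidesmosomes, stood at 4.70, 4.35 and 4.26 RPKM in GDF5 libraries, against 5.53, 5.50 and 5.56 RPKM in control libraries. The SD was 0.235 RPKM among GDF5 and 0.0322 RPKM among control libraries, and the GDF5 libraries all lay below the others. The log2 change of ITGB4 was -0.26 on the log2(RPKM + 1) scale (standard error 0.0419, limma adjusted p = 0.00530). Both calls held in every alternative fit, with adjusted p of 5.59e-04 to 0.0275 for ITGB8 and 0.00198 to 0.0254 for ITGB4.

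**Figure D1:**
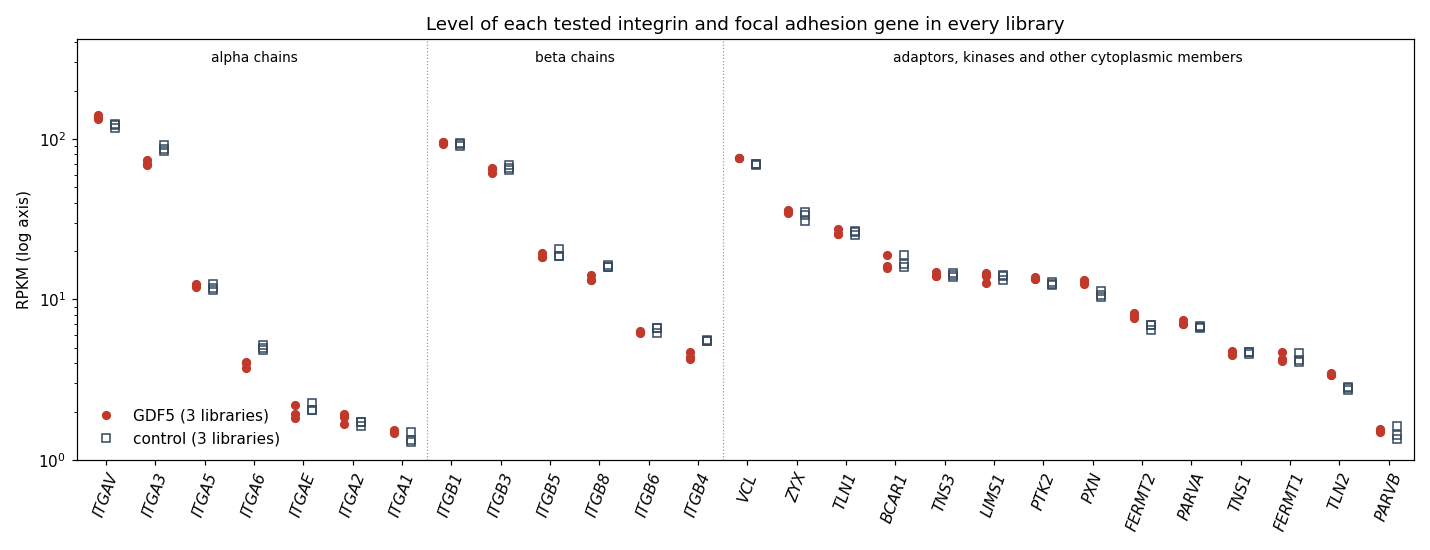
RPKM on a log axis of the 27 tested members in each library, GDF5 libraries as filled circles left of control libraries as open squares, ordered by level within alpha chains, beta chains and cytoplasmic members. ITGAV lies above all other alpha chains at 134 to 141 RPKM in GDF5 and 118 to 124 RPKM in control libraries, and the 2 groups of ITGA3, ITGA6, ITGB8 and ITGB4 are apart with GDF5 below.

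A share within a library does not depend on the scaling between libraries, so the makeup of the receptor chains was also compared as percent of summed RPKM. The summed alpha-chain level was 233 ± 1.37 RPKM in GDF5 and 233 ± 2.83 RPKM in control libraries, and the summed beta-chain level was 203 ± 3.50 RPKM in GDF5 and 208 ± 3.57 RPKM in control libraries (SD, n = 3 each). ITGAV made up 59.2 ± 1.20% in GDF5 and 52.0 ± 1.55% in control libraries (SD, n = 3 each) of the alpha-chain sum. The share of ITGA3 was 30.4 ± 1.20% in GDF5 and 37.3 ± 1.45% in control libraries (SD, n = 3 each). ITGAV and ITGA3 thus differed in opposite directions, by 7.23 and -6.93 percentage points within a nearly constant sum, and in neither did the groups overlap. Shares of the same sum are bound to each other, so these are not independent differences. ITGA6 took 1.69 ± 0.0825% in GDF5 and 2.15 ± 0.0838% in control libraries (SD, n = 3 each), again without overlap.

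In the beta-chain sum ITGB1 took 46.7 ± 0.189% in GDF5 and 44.8 ± 0.426% in control libraries (SD, n = 3 each), and its groups did not overlap although those of its RPKM did. A share also moves when other chains in the sum change, so this is not a rise of ITGB1 itself. The sum includes ITGB3, whose level is uncertain. ITGB8 took 6.69 ± 0.256% in GDF5 and 7.74 ± 0.164% in control libraries (SD, n = 3 each), and ITGB4 2.19 ± 0.155% in GDF5 and 2.66 ± 0.0556% in control libraries (SD, n = 3 each), both lower without overlap. ITGB3 was at 31.6 ± 0.528% in GDF5 and 32.0 ± 0.682% in control libraries (SD, n = 3 each), with overlap. By a two-sided exact permutation test the alpha chains ITGAV, ITGA3 and ITGA6 and the beta chains ITGB1, ITGB8 and ITGB4 each reached p = 0.1, which is the smallest that 3 against 3 libraries allow. Adjusted over 7 alpha chains these were at 0.233, and over 6 beta chains at 0.200, so no share passed 0.05, and none could have.

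**Figure D2:**
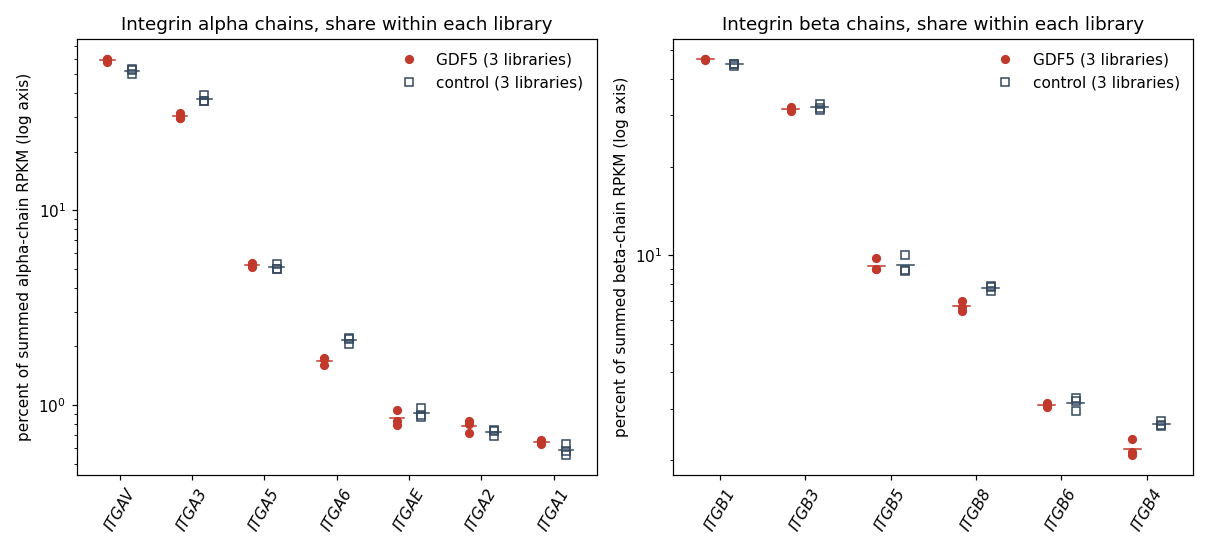
Percent of the summed alpha-chain (left) and beta-chain (right) RPKM taken by each tested chain in every library, on log axes, with GDF5 as filled circles left of control as open squares and short lines for the group means. ITGAV is at 59.2% in GDF5 and 52.0% in control libraries, and ITGA3 at 30.4% in GDF5 and 37.3% in control libraries.

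Of the 17 cytoplasmic members 14 were tested: 5 rose (35.7%), none fell and 9 were not called, against 7.48% higher and 17.5% lower of all tested genes. At an unadjusted p under 0.05 there were 0 lower as well, by limma and by limma-voom. The share of all genes at that unadjusted threshold was not counted. The talins link the beta tail to actin. TLN2 (ENSG00000171914, chromosome 15, 62390526 to 62844631) stood at 3.39, 3.50 and 3.37 RPKM in GDF5 libraries, against 2.86, 2.80 and 2.71 RPKM in control libraries. Every GDF5 library was above every control library, and TLN2 rose by 0.22 on the log2(RPKM + 1) scale (standard error 0.0408, limma adjusted p = 0.00906). With limma-voom its log2 change was 0.35, and the authors' deposited table gives 0.36. TLN1, the more abundant talin gene per length, stood at 27.6, 25.7 and 25.7 RPKM in GDF5 libraries, against 26.6, 25.2 and 26.2 RPKM in control libraries. Its groups overlapped and its log2 change was 0.017 (95% interval -0.075 to 0.11).

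The kindlins are the other activators at the beta tail. FERMT2 (ENSG00000073712, chromosome 14, 52857268 to 52952435), the broadly expressed kindlin gene, stood at 7.69, 7.90 and 8.26 RPKM in GDF5 libraries, against 6.91, 6.41 and 6.94 RPKM in control libraries. The groups did not overlap, and FERMT2 rose by 0.21 on the log2(RPKM + 1) scale (standard error 0.0431, limma adjusted p = 0.0142). The call ended without GDF5 replicate 3, at an adjusted p of 0.0550 and a log2 change of 0.18 (range of adjusted p over the alternatives 2.10e-04 to 0.0550). FERMT1, the epithelial kindlin gene, stood at 4.13, 4.68 and 4.25 RPKM in GDF5 libraries, against 4.19, 4.64 and 4.05 RPKM in control libraries. It showed no separation of the groups (log2 change 0.017, 95% interval -0.12 to 0.16). FERMT3, the kindlin gene of blood cells, was under the tested level.

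Vinculin is recruited to talin under tension and strengthens the link to actin. VCL (ENSG00000035403, chromosome 10, 73995193 to 74121363) was the most abundant cytoplasmic member per length at 75.6, 76.4 and 76.3 RPKM in GDF5 libraries, against 70.2, 68.9 and 69.3 RPKM in control libraries. The SD within groups was 0.486 RPKM in GDF5 and 0.669 RPKM in control libraries, below the gap between them. VCL rose by 0.13 on the log2(RPKM + 1) scale (standard error 0.0242, limma adjusted p = 0.00956). PXN (ENSG00000089159, chromosome 12, 120210439 to 120265771), for the scaffold paxillin, stood at 13.0, 12.6 and 13.2 RPKM in GDF5 libraries, against 10.7, 10.3 and 11.3 RPKM in control libraries. The lowest GDF5 library lay above the highest control library, and PXN rose by 0.24 on the log2(RPKM + 1) scale (standard error 0.0406, limma adjusted p = 0.00631). In the annotation 12.3% of the exon bases of PXN are shared with PXN-AS1 on the opposite strand, and 11.1% of those of VCL with AP3M1.

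PTK2 (ENSG00000169398, chromosome 8, 140657900 to 141002216), for focal adhesion kinase, stood at 13.4, 13.5 and 13.8 RPKM in GDF5 libraries, against 12.8, 12.3 and 12.5 RPKM in control libraries. The groups did not overlap, but the change was the smallest of those called, at 0.11 on the log2(RPKM + 1) scale (standard error 0.0311, limma adjusted p = 0.0424). The call ended without a filter on low genes (adjusted p = 0.0701) and on leaving out any 1 of the 6 libraries, with adjusted p of 0.0504 to 0.146. With median-of-ratios scaling the log2 change was 0.17 and the adjusted p 0.00887 (range over the alternatives 0.00118 to 0.146).

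Among the parvins, which bind actin in a complex with integrin-linked kinase, PARVA stood at 7.06, 7.39 and 7.01 RPKM in GDF5 libraries, against 6.59, 6.86 and 6.73 RPKM in control libraries. No GDF5 library lay below a control library, yet the log2 change of 0.077 was not called (limma adjusted p = 0.151). It was called with median-of-ratios scaling (adjusted p = 0.0372) and with limma-voom (adjusted p = 0.0145), in a range over the alternatives of 0.0145 to 0.388. PARVB stood at 1.51, 1.56 and 1.48 RPKM in GDF5 libraries, against 1.44, 1.62 and 1.36 RPKM in control libraries and overlapped. ZYX, for the stress-fibre LIM protein zyxin, stood at 36.2, 34.6 and 35.0 RPKM in GDF5 libraries, against 33.7, 31.0 and 35.2 RPKM in control libraries. Control replicate 3 lay within the GDF5 range, and the log2 change was 0.082 (95% interval -0.031 to 0.20). ZYX was called higher only with limma-voom among the alternatives run (adjusted p = 0.0302, range 0.0302 to 0.563).

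LIMS1, BCAR1, TNS1 and TNS3 were tested and not called, and none of them separated the groups. LIMS1 encodes the adaptor PINCH of the integrin-linked kinase complex and stood at 12.7, 14.5 and 14.1 RPKM in GDF5 libraries, against 14.2, 14.0 and 13.2 RPKM in control libraries. BCAR1, for the scaffold p130Cas, stood at 18.8, 15.8 and 16.2 RPKM in GDF5 libraries, against 16.7, 16.0 and 18.8 RPKM in control libraries. In both the groups overlapped, with log2 changes of -0.0036 (95% interval -0.13 to 0.12) and -0.020 (95% interval -0.20 to 0.17). TNS1 stood at 4.78, 4.52 and 4.60 RPKM in GDF5 libraries, against 4.72, 4.56 and 4.72 RPKM in control libraries. TNS3 stood at 14.8, 13.9 and 14.0 RPKM in GDF5 libraries, against 14.2, 13.9 and 14.7 RPKM in control libraries. The tensins join integrin tails to actin in fibrillar adhesions, and their log2 changes were -0.0082 (95% interval -0.096 to 0.080) and -0.00089 (95% interval -0.089 to 0.088). The sign of all 4 turned with median-of-ratios scaling. LIMS1 has near-identical copies elsewhere in the genome, so its level is uncertain.

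**Figure D3:**
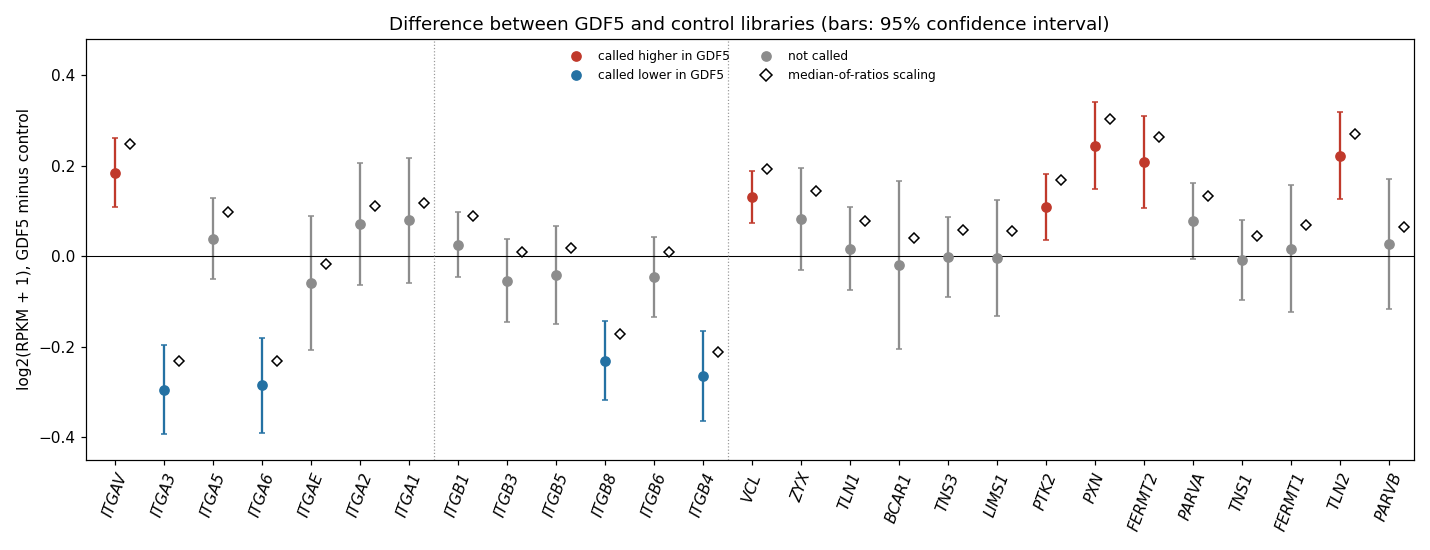
Difference in log2(RPKM + 1) between GDF5 and control libraries for the 27 tested members, with 95% confidence intervals from limma, and the same difference with median-of-ratios scaling as open diamonds. The 10 called members keep their sign and their call in both, from -0.29 for ITGA3 up to 0.24 for PXN, while the values of ITGB3, ITGB5, ITGB6, LIMS1, BCAR1, TNS1 and TNS3 lie on opposite sides of 0.

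The 15 untested members were at 0.0021 to 0.974 RPKM on average and at most 482 reads in a library. The leukocyte chains ITGB2 and ITGAX lay just under the tested level, ITGB2 at 0.916 to 1.08 RPKM in GDF5 and 0.794 to 0.985 RPKM in control libraries, and ITGAX at 0.910 to 1.00 RPKM in GDF5 and 0.946 to 1.06 RPKM in control libraries. ITGA4 was at 0.695 to 0.808 RPKM in GDF5 and 0.638 to 0.830 RPKM in control libraries, and ITGA7, the laminin receptor chain of muscle, at 0.667 to 0.764 RPKM in GDF5 and 0.714 to 0.827 RPKM in control libraries. ITGA2B, the platelet chain, was at 0.152 to 0.210 RPKM in GDF5 and 0.198 to 0.284 RPKM in control libraries, and PTK2B, for the kinase PYK2, at 0.243 to 0.287 RPKM in GDF5 and 0.181 to 0.289 RPKM in control libraries. In all 6 of these the groups overlapped.

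All but ILK of the others were at or under 0.0978 RPKM on average. ITGA10 rested on 14, 8 and 5 reads in GDF5 libraries, against 25, 20 and 19 reads in control libraries. It was lower in each GDF5 library, and limma-voom gave an adjusted p of 0.0709 (no other alternative but the fit without a filter, at 0.192, tests it). ITGA11 had 8, 4 and 3 reads in GDF5 libraries, against 0, 2 and 0 reads in control libraries. ITGA8 had 4 reads in GDF5 replicate 2 and 0 in the rest. ITGAM was at 0.0502 to 0.0881 RPKM in GDF5 and 0.0975 to 0.121 RPKM in control libraries. FERMT3, ITGA9, ITGAD and ITGB7 had between 0 and 24 reads in every library. None of the 15 was called without a filter by limma, and 0 of the 12 with a mean of at least 10 reads was called by limma-voom. At an unadjusted p under 0.05 there was 1 in each of these fits, and the share of all genes at that threshold was not counted.

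ILK, for integrin-linked kinase, lay under the tested level, at 0.328, 0.268 and 0.317 RPKM in GDF5 libraries, against 0.449, 0.356 and 0.261 RPKM in control libraries. The groups overlapped. Of its exon bases 78.5% are shared with other genes in the annotation, and 68.1% with TAF10 on the opposite strand. TAF10, a subunit of the general transcription factor TFIID, lay under it as well, at 0.333 to 0.434 RPKM in GDF5 and 0.411 to 0.476 RPKM in control libraries. Whether reads of overlapping genes were left out in the counting is not given in the sources used here, so the level of ILK is uncertain.

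The authors' deposited table, made from their own comparison, gave 13 members an adjusted p under 0.05, 9 higher and 4 lower, against 8.73% of 34156 genes, 4.91% higher and 3.82% lower. The sets differ in level, since 27 of the 42 members but only 12476 of all genes had a mean of at least 1 RPKM. All 10 called here were among the 13, in the same direction. The other 3 were ITGB1, ZYX and PARVA, with log2 fold changes of 0.090, 0.15 and 0.15 in the authors' deposited table.

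The other fits are given with the share of all genes each called. A pseudocount of 0.1 gave 6 members higher and 4 lower, with 24.9% of all genes called, 7.46% higher and 17.4% lower. With no filter 5 were higher and 4 lower (11.9% and 9.52% of the 42), against 5.3% of all genes, 1.73% higher and 3.58% lower. Those are shares of all 34157 genes, of which 12476 had a mean of at least 1 RPKM. A threshold of 0.01 left 4 higher and 4 lower, against 10.3%, 3.31% higher and 6.99% lower. With the replicate number as a block 5 were higher and 4 lower, against 17.4%, 5.28% higher and 12.1% lower. Limma-voom on reads recovered from the RPKM values gave 10 higher, ITGA1, ITGB1, ZYX and PARVA being added, and 4 lower, against 28.8% of all genes, 14.7% higher and 14.0% lower. With a minimum of 10 reads it again gave 10 and 4, against 19.5%, 9.95% higher and 9.54% lower.

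Leaving out 1 library left the same 4 members lower each time. Without GDF5 replicate 1, 2 or 3 the members higher were 5, 5 and 4, against 7.53%, 4.31% and 4.37% of all genes higher and 17.3%, 9.79% and 10.6% lower, or 24.8%, 14.1% and 15.0% called. Without control replicate 1, 2 or 3 they were 5 each time, against 5.11%, 5.74% and 5.86% of all genes higher and 11.5%, 13.1% and 11.9% lower, or 16.6%, 18.8% and 17.7% called.

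Outside the members, 66 other adhesome genes were in the table and 62 were tested. Of these 14 rose and 12 fell, or 22.6% and 19.4%, against 7.48% and 17.5% of all tested genes. With median-of-ratios scaling 18 were higher and 5 lower, against 12.9% higher and 9.96% lower of all genes. The balance of rises and falls thus depended on the scaling, as it did over all genes. Those were 933 higher and 2183 lower before that scaling, and 1606 higher and 1242 lower with it. In the fit before that scaling, the count of these adhesome genes fell to 7 higher and 6 lower without GDF5 replicate 2 (4.31% and 9.79% of all genes). It was 8 and 7 without GDF5 replicate 3 (4.37% and 10.6%) and 9 and 7 without control replicate 1 (5.11% and 11.5%). The actin crosslinker ACTN1 was at 51.2 ± 1.52 RPKM in GDF5 and 41.3 ± 0.533 RPKM in control libraries (SD, n = 3 each), a rise of 0.30 on the log2 scale. ENAH, for an actin polymerisation factor of the Ena/VASP family, rose by 0.33 and the Arf GTPase-activating ASAP1 by 0.27. CALR, the chaperone calreticulin, which also binds alpha tails, rose by 0.18. Among the falls, NEDD9, a p130Cas relative, was at 8.01 ± 0.0900 RPKM in GDF5 and 10.4 ± 0.409 RPKM in control libraries (SD, n = 3 each), a log2 change of -0.34. ITGB1BP1, an inhibitor of talin binding to β1, had -0.32 and the LIM protein AJUBA -0.31. Each of these 7 was called with limma and kept its sign and its call with median-of-ratios scaling.

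Of 9 hemidesmosome and tetraspanin partners of integrins 6 were tested, and 3 fell and 1 rose. Over all tested genes 17.5% fell and 7.48% rose. At a threshold of 0.01 the counts of partners were 1 lower and 0 higher (6.99% and 3.31% of all genes). Without GDF5 replicate 2 they were 2 and 0 (9.79% and 4.31%), and without GDF5 replicate 1 they were 4 and 1 (17.3% and 7.53%). PLEC, for plectin, which ties β4 to keratin filaments, was at 21.5 ± 1.87 RPKM in GDF5 and 26.4 ± 1.59 RPKM in control libraries (SD, n = 3 each). Its log2 change was -0.29, and the call ended without GDF5 replicate 2 or 3 or control replicate 1 or 3 (limma adjusted p of 0.0591 to 0.0707). The tetraspanin gene CD63 was at 156 ± 1.66 RPKM in GDF5 and 192 ± 5.85 RPKM in control libraries (SD, n = 3 each), with a log2 change of -0.30. CD81 was also lower (-0.23), and CD82 was higher (0.14), a call that ended on leaving out any library other than GDF5 replicate 1. COL17A1, the hemidesmosomal collagen, lay under the tested level.

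Among 31 integrin ligand genes 26 were tested, and 5 rose and 9 fell. That was 19.2% and 34.6%, against 7.48% higher and 17.5% lower of all tested genes. Of the 6 laminin chains on the list, all tested, ligands of the α3 and α6 receptors, 3 fell and 3 were not called. LAMA5 was at 19.2 ± 1.61 RPKM in GDF5 and 32.0 ± 1.59 RPKM in control libraries (SD, n = 3 each), a log2 change of -0.71, LAMB3 had -0.59 and LAMB1 -0.24. Tenascin C, TNC, had -0.32, and CDH1, the ligand of the αE receptor, -0.51. The RGD-containing ligand genes THBS1 and FBN1 rose by 0.69 and 0.43, and CCN2 by 0.54. These 8 were called with limma and with median-of-ratios scaling. The members and all of these lists were chosen with earlier results of these data known, so their counts are a description.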

How the data were processed

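RNA of 6 HK-2 libraries was compared, 3 with GDF5 and 3 control, grouped by their titles. Strand-specific Illumina libraries were made from TRIzol total RNA, per the labels' protocols. HISAT2, DESeq2 and GRCh38 are named in the submitters' processing notes, whereas no source used here gives the read counter or the annotation. The authors deposited 6 columns without a stated unit, which the values showed to be RPKM, a mean signal per group (reads divided by a size factor), and their log2 fold change and p-value per gene. The table was present as 2 identical files.

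Reads were recovered from the steps of the RPKM values and the group signals. All 64624 values under 20 reads came within 0.1 of a whole number (100%), and 63.7% of them were even, so each mate may often have been counted on its own. Read counts gave the depths and a limma-voom alternative only. The chi-square per gene was taken on reads divided by 2 over genes with at least 50 in a pair of libraries. GENCODE 29 held 96.9% of the identifiers, and gave the coordinates.

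Genes with a mean of at least 1 RPKM were tested with limma 3.58.1 in R 4.3.3 on log2(RPKM + 1) with an intensity trend, no block, two-sided, and p-values adjusted by Benjamini-Hochberg over all 12476 genes. Fold changes on that scale understate low genes. The fit was checked on simulated data with known changes. All simulated folds were larger than those of the called members, so recovery of changes of their size was not checked. Shares used exact permutation tests in scipy 1.17.1. Every tested member is named with its values, and of other lists up to 8 called genes with the smallest adjusted p, of which 1 is not reported here. The members and lists were chosen with earlier results of these data known. Alternatives were another pseudocount, no filter, median-of-ratios scaling, a replicate block, a stricter threshold, limma-voom and leaving out each library.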

Additional observations from a re-analysis of the deposited data

How the results depend on the processing

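The 4 falls (ITGA3, ITGA6, ITGB4 and ITGB8) were called in every alternative run. The rises numbered 6, and 4 to 7 with a pseudocount of 0.1, no filter, median-of-ratios scaling, a threshold of 0.01, the replicate block (5 rises and 4 falls) or without 1 library (4 to 5), and 10 with limma-voom, also with a minimum of 10 reads, an alternative chosen after seeing the data. ITGAV, VCL, PXN and TLN2 were called in all of them. The other adhesome genes, 14 higher and 12 lower, were 9 higher with the replicate block, 7 lower with no filter, 5 lower with median-of-ratios scaling and 5 higher and 4 lower at 0.01, and without 1 library 7 to 14 were higher and 6 to 11 lower. The shares of all genes called in each of these fits are given above. Same-numbered libraries did not deviate together (correlations of -0.037, 0.057 and -0.031 over genes), so the replicate block rests on shared numbers only, and with it the call of PTK2 ended (adjusted p = 0.103). At 0.01 the calls of PTK2 and FERMT2 ended.

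The sign turned only for members that were not called. With median-of-ratios scaling ITGB3 was at 0.0089, ITGB5 at 0.019, ITGB6 at 0.0091, LIMS1 at 0.056, BCAR1 at 0.041, TNS1 at 0.044 and TNS3 at 0.059, and with limma-voom ITGB3 was at 0.00042, ITGB5 at 0.0095, ITGB6 at 0.0017, LIMS1 at 0.050, BCAR1 at 0.034, TNS1 at 0.046 and TNS3 at 0.054 on the log2 scale. With a minimum of 10 reads limma-voom gave 0.00064 for ITGB3, 0.0093 for ITGB5, 0.0017 for ITGB6, 0.050 for LIMS1, 0.034 for BCAR1, 0.046 for TNS1 and 0.054 for TNS3. Without 1 library the log2 change ranged from -0.068 to 0.0018 for ITGB5, from -0.017 to 0.033 for TLN1, from -0.027 to 0.064 for FERMT1, from -0.0064 to 0.070 for PARVB, from -0.040 to 0.050 for LIMS1, from -0.094 to 0.044 for BCAR1, from -0.027 to 0.0068 for TNS1 and from -0.029 to 0.019 for TNS3. The share of ITGB5 differed by -0.33 to 0.32 and that of ITGB6 by -0.13 to 0.027 percentage points. The cause was not tested. The 15 untested members were left out by the minimum of 1 RPKM, and 12 of them were tested by limma-voom with a minimum of 10 reads.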
